A study of Mus musculus with 8 samples.

Results

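The genes described here are the enzymes that build and decorate mucin-type O-glycans, the sugar chains that cover the mucus of the colon. They were taken from the deposited gene table by symbol: protein-coding genes of the numbered Galnt, B3gnt, Gcnt, St6galnac, Chst and Fut families, with C1galt1, its chaperone C1galt1c1 and 5 St3gal genes. The rule found 66 gene IDs with 65 symbols, out of 54141 genes in the table and 21905 protein-coding ones. St6galnac2 is listed under 2 IDs that share exons on the same strand, so the authors' counting could have split its fragments. Bulk RNA-seq was done on epithelial cells of the mouse distal colon, shaken loose from the tissue in EDTA and passed through a strainer. There were 4 libraries of wild type mice (WT) and 4 of mice labelled homozygous mutant for Degs2 (Degs2_KO), both on the c57bl6/j background. Degs2 encodes a sphingolipid desaturase and hydroxylase of phytoceramide synthesis. The labels give no age, sex or allele design, nor do they tie each library to its own mouse. The p-values below therefore reflect the spread among these libraries, part of which may be technical.

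Mucin-type O-glycosylation takes place in the Golgi. GALNT enzymes attach N-acetylgalactosamine (GalNAc) to serine or threonine of the protein. C1GALT1 adds galactose to give the core 1 chain, while B3GNT6 adds N-acetylglucosamine (GlcNAc) to give core 3, and GCNT enzymes branch these into core 2 and core 4. The chains are then extended and capped with sialic acid, fucose or sulfate. In the colon the main carrier is the gel-forming mucin of goblet cells, MUC2, and loss of core 1 or core 3 chains in mice is known to impair the mucus layer. Several of the families also hold enzymes whose main known substrates are N-glycans, glycolipids or proteoglycans. Some of these are named as such below, and an enzyme without such a mark need not act on mucins.

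Fragments assigned to genes, as estimated from the deposited counts, ranged from 32827072 (WT replicate 1) to 49823774 (WT replicate 2) in the 8 libraries. Of the 66 genes, 50 passed the filter on low counts among 16132 genes tested. Degs2, the targeted gene, was at 151, 109.6, 106 and 120.3 CPM (normalised counts scaled to 1000000 a library) in WT replicates 1 to 4. In the Degs2_KO libraries it was at 53.3, 47.7, 65.6 and 65.9 CPM, on average 47.8% of WT (exact 2-sided permutation p = 0.0286; edgeR adjusted p = 0.796). Epithelial markers (Epcam, Cdh1, keratins, Vil1 and Cdx2, 8 genes) summed to between 12809 and 16531 CPM. Markers of other cells were low in both groups: their summed levels were at most 14.9 CPM for T cells, 30.8 for fibroblasts, 8.25 for myeloid, 12.7 for endothelial, 1.88 for B and plasma cells, 3.96 for enteric neurons and glia and 0.853 for smooth muscle. The 30.8 CPM of fibroblast markers was in WT replicate 4, and the part of these cells in the results was not tested. WT replicate 1 and Degs2_KO replicate 3, 1 library of each genotype, stood apart from the other 6 in earlier results on all genes. Estimates without both are given for the enzymes that rest on them.

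No enzyme differed between the genotypes past the adjusted threshold of 0.05 (edgeR, quasi-likelihood, Benjamini-Hochberg over the whole table). The count was 0 of 50, where 0 of all 16132 genes passed (0%). At an unadjusted p under 0.05 there was 1 enzyme, Galnt3, or 2% of the 50, beside 1.13% of all genes (0.329% higher and 0.806% lower in Degs2_KO). DESeq2 called 0 of the 50 as well, with 1 at an unadjusted p under 0.05, beside 0.0124% and 1.33% of all genes. In 0 of the 50 did the 4 WT and 4 Degs2_KO values fail to overlap, beside 1.05% of all genes. The log2 fold change (Degs2_KO minus WT) was above 0 for 27 enzymes (47.4% of all genes were above 0) and below 0 for 23, with a median of 0.02 against -0.0069 over all genes.

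The width of the intervals says how far this goes. For 22 of the 50 enzymes (44%, against 60.4% of all genes) the fold change had a 95% interval inside 1.5-fold in either direction. The interval was inside 2-fold for 37 (74%, against 81.9%). For the other 13 the interval reaches past 2-fold in at least 1 direction, so a change of that size is not excluded, and a missed threshold does not show that the level was the same. Among enzymes above 10 CPM the largest ratio of group means was 1.53, for Fut9, which was higher in WT with overlapping values.

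**Figure D1:**
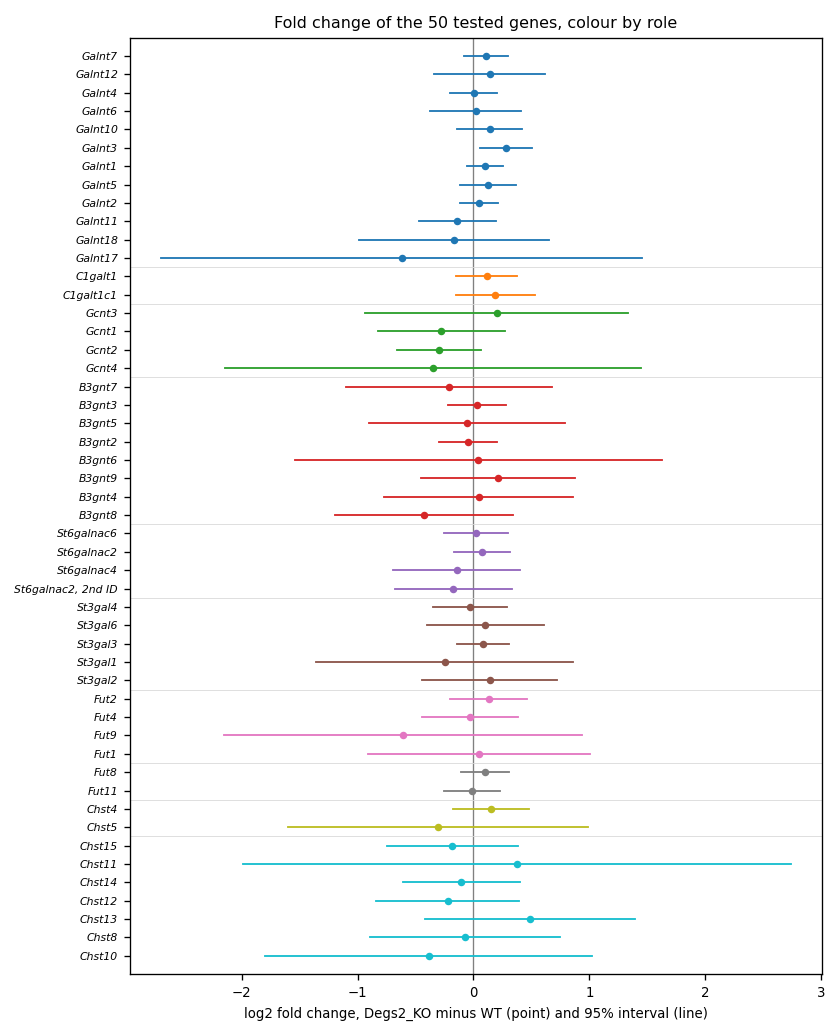
Log2 fold change of each of the 50 tested enzymes, Degs2_KO minus WT (x axis; point, edgeR estimate; line, 95% interval), one row per enzyme and coloured by role. The interval of Galnt3 lies above 0, and the widest intervals are those of Chst11, Galnt17 and Gcnt4.

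The enzymes covered a wide span of levels. Per kb of merged exons, the mean over the 8 libraries ran from 0.0783 to 175.5 CPM per kb with a median of 9.11. Of the 50, 35 were above 10 CPM, 20 above 100 CPM and 9 under 1 CPM. The 16 not tested (Chst1, Chst2, Chst3, Chst7, Chst9, Fut7, Fut10, Galnt9, Galnt13, Galnt14, Galnt15, Galnt16, Gcnt7, St6galnac1, St6galnac3 and St6galnac5) reached at most 0.323 CPM in any library. In 7 of them every library was at or under the level of 3 fragments (0.0622 to 0.0948 CPM), and Chst9 was at 0 in all 8, which allows a level of up to that of 3 fragments, counting error only. In the plot of levels per length the ranges of the WT and Degs2_KO values overlap for all 50 tested enzymes.

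**Figure D2:**
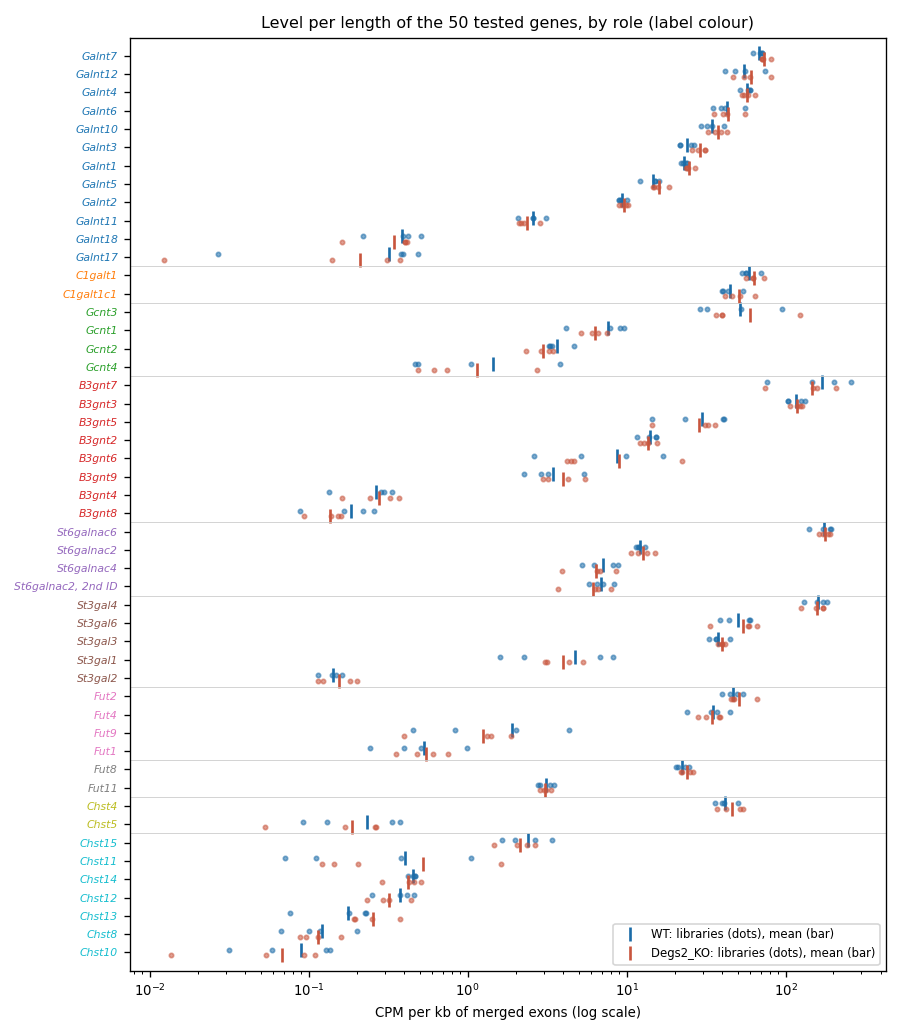
Level of the 50 tested enzymes in CPM per kb of merged exons (x axis, log scale), with dots for single libraries and a bar for the mean of 4 WT and of 4 Degs2_KO libraries; label colour gives the role. St6galnac6, St3gal4, B3gnt7 and B3gnt3 are above 100 CPM per kb, and the WT and Degs2_KO dots overlap in all 50 rows.

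Sequence before the RefSeq start is shown for 4 enzymes that stand for the different patterns described below. B3gnt7 and Galnt17 were lowest in WT replicate 1 and Degs2_KO replicate 3, and Gcnt4 was highest in them. Galnt3 had the smallest p between genotypes. Each run is the 250 bases before the RefSeq start (GRCm38.p6), read 5′ to 3′ on the gene's strand. The GENCODE annotation used for gene lengths has other starts: 86302832 for B3gnt7, 131308497 for Galnt17, 96924689 for Gcnt4 and 66124994 for Galnt3. By these the B3gnt7 and Galnt17 windows lie inside the gene, and most of the Galnt3 window does. They need not be promoters. Capitals mark matches, on either strand, to 4 short motifs. These are the core of caudal-type homeobox sites, TTTAT, the posterior Hox motif, TCGTAAA, and the motif of GATA factors, AGATAA. The last of them is the GC box, spelled GGGCGG. The windows are chr1:86302971-86303220 on the plus strand for B3gnt7, chr5:131307523-131307772 on the minus strand for Galnt17, chr13:96924463-96924712 on the plus strand for Gcnt4 (1 of its 2 windows) and chr2:66124794-66125043 on the minus strand for Galnt3.
B3gnt7: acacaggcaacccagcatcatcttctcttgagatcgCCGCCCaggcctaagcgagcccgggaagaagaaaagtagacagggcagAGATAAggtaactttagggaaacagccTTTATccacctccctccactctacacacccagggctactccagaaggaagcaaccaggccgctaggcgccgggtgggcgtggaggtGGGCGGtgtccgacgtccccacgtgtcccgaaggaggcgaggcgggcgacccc
Galnt17: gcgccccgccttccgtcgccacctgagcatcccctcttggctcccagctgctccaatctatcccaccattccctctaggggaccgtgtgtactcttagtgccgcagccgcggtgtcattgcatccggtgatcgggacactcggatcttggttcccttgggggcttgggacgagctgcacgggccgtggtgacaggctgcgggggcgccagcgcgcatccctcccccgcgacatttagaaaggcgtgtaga
Gcnt4: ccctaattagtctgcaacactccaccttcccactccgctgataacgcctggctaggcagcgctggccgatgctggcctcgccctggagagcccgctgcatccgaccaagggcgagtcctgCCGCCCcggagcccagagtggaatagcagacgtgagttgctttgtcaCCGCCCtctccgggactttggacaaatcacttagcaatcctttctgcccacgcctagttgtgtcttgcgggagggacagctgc
Galnt3: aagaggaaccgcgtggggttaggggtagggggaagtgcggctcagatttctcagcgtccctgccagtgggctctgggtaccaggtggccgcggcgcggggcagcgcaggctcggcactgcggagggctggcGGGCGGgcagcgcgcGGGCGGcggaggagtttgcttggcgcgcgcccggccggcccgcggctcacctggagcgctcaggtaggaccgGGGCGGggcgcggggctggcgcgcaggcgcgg

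All 4 windows were rich in G and C, from 61.2% in Gcnt4 to 76.8% in Galnt3, and the Galnt3 window held 34 CpG dinucleotides. B3gnt7 had 1 match to TTTAT, beginning 139 bases before the start, 1 to AGATAA at 166, and GC boxes at 53 and 214. Galnt3 had 3 GC boxes and Gcnt4 had 2, while Galnt17 had no match to any of the 4. RefSeq windows were at hand for 47 of the 65 symbols, 63 windows in all. TTTAT was in 13 of these (20.6%, against 37.3% of 32851 windows of all genes), TCGTAAA in 0 (0.478%), AGATAA in 4 (6.35%, against 9.99%) and GGGCGG in 36 (57.1%, against 32.7%). A match is a run of letters and not a measured binding site.

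The initiating step had the most genes: 17 GALNT transferases, of which 12 were tested, 9 with a log2 fold change above 0 and 3 below, 0 past the threshold. Their summed level was 1503 ± 96.9 CPM in WT and 1603 ± 131 in Degs2_KO (SD, n = 4 each). Galnt7, Galnt12 and Galnt4 were highest per length. Galnt7, which prefers peptides that already carry GalNAc, was at 68.2 ± 4.14 CPM per kb in WT and 73.5 ± 4.63 in Degs2_KO. Galnt12, an enzyme abundant in the digestive tract, was at 54.8 ± 14.0 and 60.4 ± 14.5. Galnt4, which also prefers glycosylated peptides, was at 57.2 ± 3.70 and 57.3 ± 4.89, levels that differ from those of Galnt12 by less than their spread. Exons of Galnt4 overlap Poc1b on the same strand, so its fragments may be shared with that gene. Galnt6, Galnt10, Galnt3 and Galnt1 were the other initiating enzymes above 100 CPM.

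Galnt3 (ENSMUSG00000026994, chr2:66082766-66124994 on mm10) had the smallest p of all 50. This enzyme is best known for protecting the hormone FGF23 from cleavage and also acts on mucin peptides. It was at 116, 111, 95.3 and 95.2 CPM in WT and at 113, 124, 137 and 135 CPM in Degs2_KO. Degs2_KO replicate 1 lay below WT replicate 1, so the groups overlapped, and the other 3 Degs2_KO libraries were above every WT library. The log2 fold change was 0.28 ± 0.10 (SE; 95% interval 0.06 to 0.50), with an unadjusted p of 0.0195 and an edgeR adjusted p of 0.9996. That is 1 enzyme of 50 at an unadjusted p under 0.05, near the share over all genes.

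Galnt1, a broadly expressed initiator, varied little between libraries. It was at 132, 130.0, 122 and 124 CPM in WT and 135, 130.4, 131 and 148 in Degs2_KO, with a log2 fold change of 0.10 ± 0.07. For Galnt7 the estimate was 0.11 ± 0.08 and for Galnt12 0.14 ± 0.21. Galnt11, known for kidney endocytic receptors and Notch, was the lower-pointing enzyme of this role with the smallest p (-0.14 ± 0.15). At the low end, Galnt17, a family member best known from the nervous system, had the widest range between libraries of all 50. It was at 0.253, 3.57, 4.57 and 3.69 CPM in WT and 3.53, 2.91, 0.116 and 1.32 in Degs2_KO. The 2 low values are WT replicate 1 and Degs2_KO replicate 3, a 39.6-fold range that crosses both genotypes, and the log2 fold change was -0.62 ± 0.92. Galnt18, at about 1 CPM elsewhere, was 0.569 and 0.416 CPM in the same 2 libraries.

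Neither of the 2 core 1 genes was called. C1galt1, the galactosyltransferase that makes core 1, was at 342, 342, 424 and 322 CPM in WT and 445, 345, 378 and 381 in Degs2_KO, so the groups overlapped. Its level per length was 58.7 ± 7.42 CPM per kb in WT and 63.6 ± 6.86 in Degs2_KO, with a log2 fold change of 0.11 ± 0.12. C1galt1c1 (Cosmc), the chaperone without which the synthase does not fold, was at 78.7, 63.1, 58.1 and 57.8 CPM in WT and 66.4, 60.6, 92.5 and 74.3 in Degs2_KO. Its log2 fold change was 0.19 ± 0.15, and its 2 highest values were again WT replicate 1 and Degs2_KO replicate 3. The estimate was 0.31 without the first of these and 0.059 without the second.

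The 8 B3GNT enzymes, which add GlcNAc to galactose or to GalNAc, all passed the filter, 4 with estimates above 0 and 4 below. B3gnt3, which extends core 1, was at 116 ± 15.2 CPM per kb in WT and 118 ± 8.80 in Degs2_KO, and its log2 fold change was 0.03 ± 0.11. B3gnt7 (chr1:86302832-86307305), known for keratan sulfate and poly-lactosamine chains, had the highest mean of the role at 170.4 ± 77.9 and 147 ± 54.5 CPM per kb, a spread too wide to set it apart from B3gnt3. Its values were 315, 1070.1, 831 and 602 CPM in WT and 614, 854, 308 and 655 in Degs2_KO. The values in WT replicate 1 and Degs2_KO replicate 3 were about alike and below the other 6, and the log2 fold change was -0.21 ± 0.39.

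B3gnt5, which starts lacto-series glycolipids rather than mucin chains, followed the same order. It was at 74.7, 208, 214 and 120.3 CPM in WT and 188, 169, 75.0 and 162 in Degs2_KO, with a log2 fold change of -0.06 ± 0.37. B3gnt6 (chr7:98192417-98199481), the core 3 synthase, ran the other way. It was at 40.0, 6.16, 12.3 and 23.5 CPM in WT and 10.1, 10.6, 52.6 and 11.1 in Degs2_KO. Its 2 highest libraries were the pair in which B3gnt7 was lowest, and its group means of 20.5 and 21.1 CPM were almost equal (log2 fold change 0.04 ± 0.70). Without that pair the estimate for B3gnt6 was -0.40 ± 0.42. B3gnt8, which works with B3gnt2 on branched N-glycans, was between 0.569 and 1.68 CPM (-0.43 ± 0.34).

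Among the branching enzymes, Gcnt3 had the widest range between libraries (4.24-fold) of the 20 enzymes above 100 CPM. Gcnt3 (chr9:70031496-70038088), the mucin-type enzyme that makes core 2 and core 4 and the highest of the 4 tested per length, was at 52.0 ± 30.2 CPM per kb in WT and 59.7 ± 42.0 in Degs2_KO. In single libraries it was at 407, 124, 138 and 225 CPM in WT and 172, 171, 528 and 156 in Degs2_KO. WT replicate 1 and Degs2_KO replicate 3 were above the other 6, which spanned 124 to 225, and the log2 fold change between genotypes was 0.20 ± 0.50. Gcnt4, a core 2 enzyme of low level, had the same pattern. It was at 19.4, 2.47, 2.38 and 5.34 CPM in WT and 3.76, 3.12, 13.9 and 2.49 in Degs2_KO (-0.35 ± 0.79).

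Gcnt1, the core 2 enzyme of leukocytes and many other cells, ran against Gcnt3. It was at 24.0, 52.1, 55.5 and 45.0 CPM in WT and 38.0, 43.2, 29.6 and 35.1 in Degs2_KO, lowest in the pair in which Gcnt3 was highest. Its log2 fold change was -0.28 ± 0.24 (unadjusted p = 0.282). Without WT replicate 1 and Degs2_KO replicate 3, the Degs2_KO values (35.1 to 43.2 CPM) were below the WT values (45.0 to 55.5). Groups of 3 did not overlap for 9.41% of all genes. The estimate was then -0.39 ± 0.11 (edgeR, unadjusted p = 0.00979, adjusted p = 0.999), where 4.01% of all genes had an unadjusted p under 0.05. The libraries left out were the 2 lowest for Gcnt1, so a smaller SE follows from leaving them out. Gcnt2, which makes the branched I antigen, had the smallest p of the enzymes with estimates below 0. It was at 24.0, 23.3, 22.9 and 32.7 CPM in WT and 24.3, 22.8, 20.3 and 16.4 in Degs2_KO (-0.30 ± 0.16, unadjusted p = 0.0949), so WT replicate 4 was well above the other WT libraries.

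**Figure D3:**
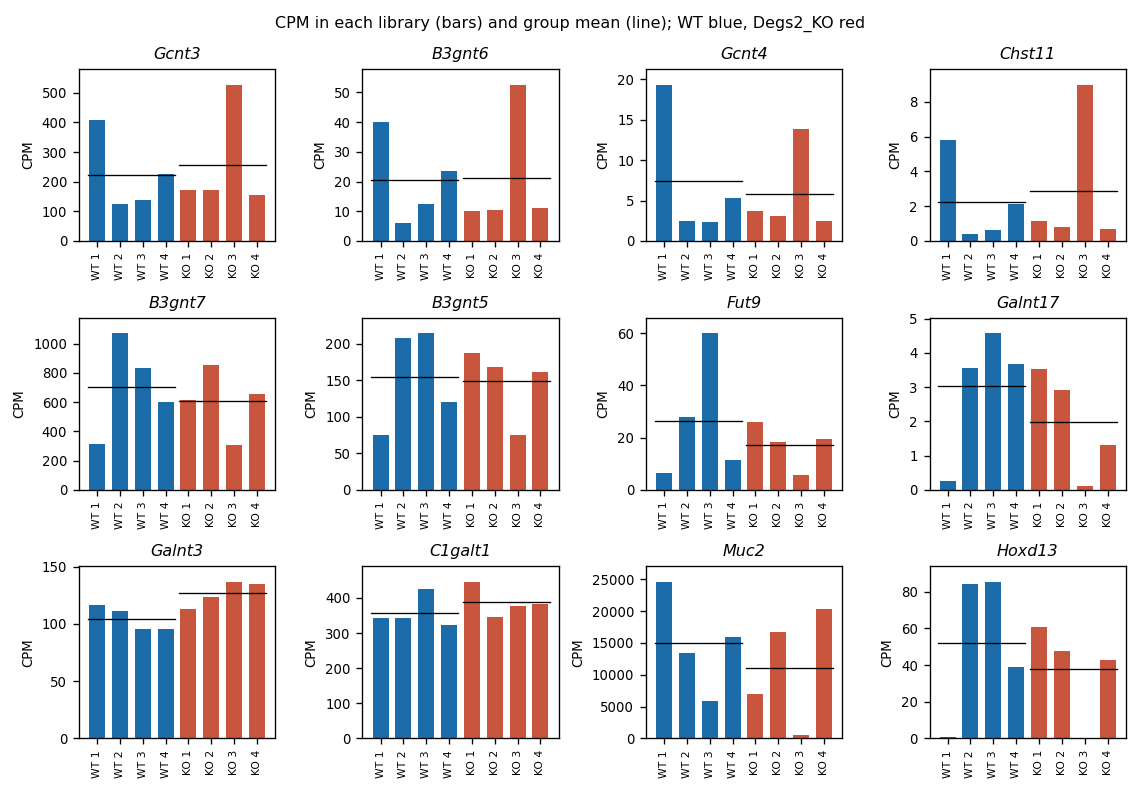
CPM in each of the 8 libraries (bars; line, group mean; WT blue, Degs2_KO red) for 10 enzymes and 2 genes shown for comparison, each panel with its own axis from 0. Gcnt3, B3gnt6 and Gcnt4 are tallest in WT 1 and KO 3, and B3gnt7, B3gnt5 and Galnt17 are shortest there.

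Sialic acid is added by 2 sets of enzymes. Of the 7 gene IDs of the St6galnac family, which place it on GalNAc, 4 were tested, and 2 of these had estimates above 0. St6galnac6, whose best known substrates are glycolipids, was the highest of all 50 per length, at 174 ± 24.3 CPM per kb in WT and 177 ± 13.1 in Degs2_KO (log2 fold change 0.02 ± 0.12). St6galnac2, which acts on core 1, was at 12.1 ± 0.706 and 12.7 ± 1.86 CPM per kb under its first ID. St6galnac4, which adds a second sialic acid to core 1 that already carries one on galactose, was at 7.11 ± 1.66 and 6.43 ± 1.9. St6galnac1, the enzyme that makes the sialyl-Tn antigen, was not tested, at 0.0916 to 0.323 CPM over the 8 libraries.

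All 5 St3gal genes, which place sialic acid on galactose, were tested, 3 with estimates above 0 and 2 below. St3gal4, which prefers lactosamine ends, was at 160.0 ± 22.8 CPM per kb in WT and 157 ± 22.2 in Degs2_KO (-0.03 ± 0.14). St3gal6, with similar acceptors, was at 50.2 ± 10.5 and 53.9 ± 14.0 (0.10 ± 0.22), and St3gal3 at 37.5 ± 4.99 and 39.6 ± 1.58. St3gal1, the main enzyme for core 1, varied most, at 56.3, 10.9, 15.4 and 46.3 CPM in WT and 29.7, 21.6, 36.2 and 20.9 in Degs2_KO. Here the 2 highest libraries were WT replicates 1 and 4 and the lowest were WT replicates 2 and 3, so all 4 Degs2_KO values fell inside the WT range (-0.25 ± 0.49).

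Terminal fucose is added by Fut1 and Fut2, which make the H antigen, and by Fut4, Fut7 and Fut9, which make Lewis-type structures. Fut2, the secretor enzyme of the gut, was highest at 46.9 ± 6.20 CPM per kb in WT and 51.3 ± 9.75 in Degs2_KO. It was at 292, 241, 215 and 270.2 CPM in WT and 245, 258, 357 and 253 in Degs2_KO, with the pair again on top (0.13 ± 0.15). Fut4 was at 35.0 ± 8.50 and 34.2 ± 5.09 CPM per kb and had its 2 lowest values in the pair. Fut9 was at 6.29, 27.9, 59.9 and 11.6 CPM in WT and 25.9, 18.3, 5.50 and 19.5 in Degs2_KO. Its WT mean rests on replicate 3, and the log2 fold change of -0.61 ± 0.68 was 0.18 without that library. Fut8, which puts the core fucose on N-glycans, was at 22.3 ± 1.93 and 23.9 ± 2.01 CPM per kb, and Fut11 at 3.11 ± 0.350 and 3.07 ± 0.204.

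Sulfate is placed on GlcNAc or galactose of the chains by the enzymes of Chst1, Chst2, Chst4, Chst5 and Chst7. Of these 5 genes only Chst4 and Chst5 passed the filter. Chst4 was at 93.5, 115, 90.2 and 82.0 CPM in WT and 84.8, 118, 95.7 and 124 in Degs2_KO. That is 41.7 ± 6.13 and 46.3 ± 8.10 CPM per kb (log2 fold change 0.15 ± 0.15), and it supplied nearly all of the role's summed level of 82.3 to 124 CPM. Chst5, an intestinal GlcNAc sulfotransferase in other settings, was at 0.116 to 0.815 CPM. The other 9 Chst genes act on proteoglycans, hormone N-glycans or the HNK-1 epitope, and 7 were tested, 2 with estimates above 0 and 5 below. Chst15, a chondroitin sulfotransferase, was highest at 2.41 ± 0.763 and 2.12 ± 0.505 CPM per kb.

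Among these, Chst11, which sulfates chondroitin, was at 5.81, 0.394, 0.611 and 2.11 CPM in WT and 1.12, 0.803, 8.99 and 0.670 in Degs2_KO. The pair was highest once more, and the log2 fold change of 0.38 ± 1.04 was -0.26 ± 0.60 without it. Chst14, for dermatan sulfate, was at 0.600 to 1.06 CPM in the 8 libraries. Chst13 (0.125 to 0.624 CPM) had a log2 fold change of 0.49 ± 0.40.

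The order of libraries was thus shared by many enzymes and crossed the genotypes. WT replicate 1 and Degs2_KO replicate 3 were the 2 lowest libraries for 14 of the 50 (28%, against 16.6% of all genes) and the 2 highest for 13 (26%, against 17.8%), and neither for 23. Lowest there were B3gnt5, B3gnt7, B3gnt8, Chst10, Chst15, Fut4, Fut9, Galnt11, Galnt17, Galnt18, Gcnt1, St3gal6, St6galnac4 and St6galnac6. Highest there were B3gnt6, B3gnt9, C1galt1c1, Chst8, Chst11, Fut1, Fut2, Galnt2, Galnt6, Galnt10, Galnt12, Gcnt3 and Gcnt4. Both sets hold initiating, GlcNAc-adding, branching and fucosylating enzymes, and the 2 homologues Gcnt1 and Gcnt3 lie on opposite sides. The pair was seen to stand apart in earlier results of these data, so these counts describe it and test nothing.

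**Figure D4:**
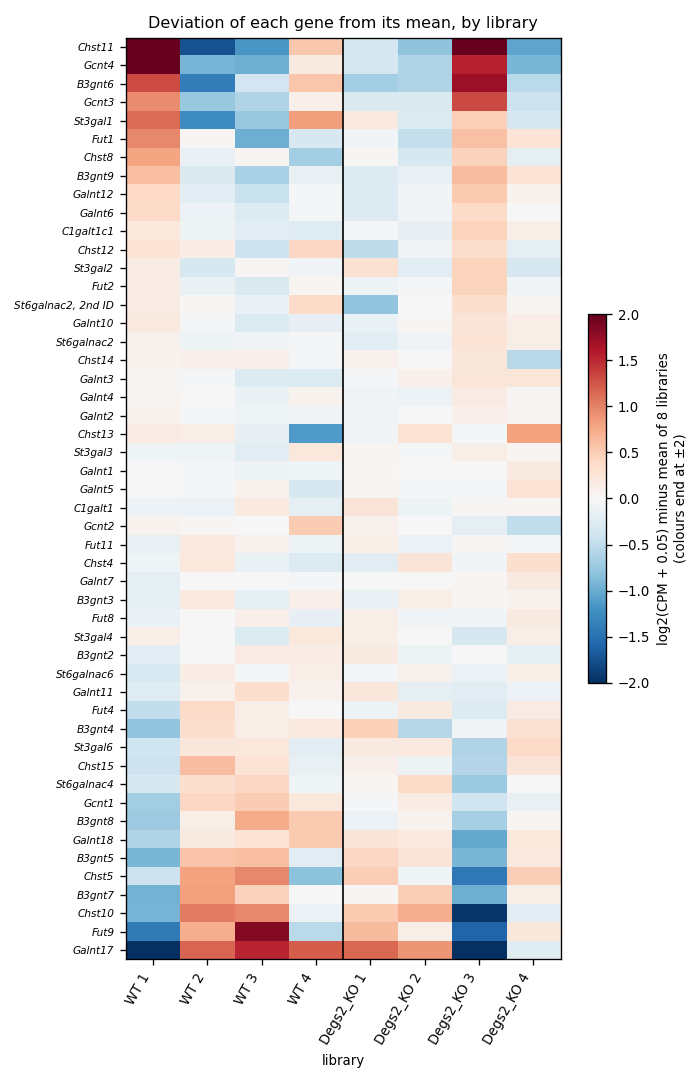
Deviation of log2(CPM + 0.05) from each enzyme's mean over the 8 libraries (colour, ending at ±2), with enzymes in rows and libraries in columns and a line between WT and Degs2_KO. Rows are sorted by the mean deviation of WT replicate 1 and Degs2_KO replicate 3. The blocks of high and of low enzymes in these columns therefore follow from the row order.

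As a set, the enzymes had a higher median spread between libraries than all genes, in a comparison not matched for level. The median SD of log2 CPM over the 8 libraries was 0.31 for the 50 enzymes and 0.22 for all genes tested, and 32 of the 50 were above the latter. A range of at least 4-fold was seen for 11 enzymes (22%, against 9.83% of all genes), 8 of them with a mean of at least 1 CPM. Among the 6 libraries without the pair the medians were 0.23 and 0.19.

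Values of other genes moved with this order. The 6 posterior Hox genes looked at (Hoxa13, Hoxb13 and Hoxd10 to Hoxd13, chosen after the data were seen), which mark the hind end of the gut, were all lowest in the pair. Hoxd13 was at 0.695 CPM in WT replicate 1 and 0.300 in Degs2_KO replicate 3, and at 38.8 to 85.3 in the other 6. Summed goblet markers did not follow the pair: they were highest in WT replicate 1 (29966 CPM) and lowest in Degs2_KO replicate 3 (6594), with 11363 to 26553 in the others. Of 10 goblet markers tested 0 were called, with 9 estimates above 0 and a median of 0.23. Muc2 made up most of the sum except in Degs2_KO replicate 3. It was at 24564, 13493, 5907 and 15964 CPM in WT and 6963, 16701, 522 and 20373 in Degs2_KO (log2 fold change -0.43 ± 0.85). The sums rank the libraries as Muc2 alone does, so they say little of the other goblet markers. Fcgbp and Clca1 had failed estimates and are not in the sums. Of the 10, 2 were highest in the pair, the transcription factors Spdef (135 and 155 CPM) and Atoh1 (95.1 and 119). Tff3, a secreted trefoil peptide, was lowest there (285 and 291 CPM, against 308 to 541), and the other 7 were neither. Summed T cell markers were highest in the pair, at 14.9 and 11.6 CPM against 1.52 to 9.03. The part that colon position or cell makeup has in the enzymes' values was not tested, and in bulk RNA fewer cells of a type and less RNA per cell cannot be told apart.

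The supply of sugars and sulfate to these enzymes was looked at with lists of genes. Of 20 tested genes that make the activated sugars and sulfate, 0 were called in either direction, 15 had estimates above 0 and 5 below, and the median log2 fold change was 0.06. The smallest p was that of Nanp, a phosphatase of sialic acid synthesis, at 1.04 to 1.30 CPM in WT and 1.32 to 2.1 in Degs2_KO (log2 fold change 0.40 ± 0.21, unadjusted p = 0.0858). Its groups did not overlap (1 of the 20, beside 1.05% of all genes), but the gap between them was smaller than the value of 1 fragment. Pgm3, of the UDP-GlcNAc pathway, came next at 0.11 ± 0.08. Papss2, which makes the active sulfate donor, was at 675 and 649.8 CPM in WT replicate 1 and Degs2_KO replicate 3 and at 314 to 448 in the others. Of the 20 genes, 10 were highest and 2 lowest in the pair, beside 17.8% and 16.6% of all genes. In the lists that follow, 4 of 10 transporters were highest and 3 lowest there. Of 16 other chain enzymes 4 were highest and 6 lowest, and of 7 mucin backbones 1 and 1.

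Among 10 transporters of activated sugars and of sulfate, 0 were called, with 5 estimates on each side of 0. Slc35a1, the CMP-sialic acid carrier (0.14 ± 0.10), and Slc35b2, the sulfate donor carrier (0.12 ± 0.14), had the smallest p. Slc35d1, a carrier of UDP-sugars, was at 159 and 156 CPM in the pair and 43.9 to 76.9 in the other 6, while Slc26a2, the sulfate transporter of the colon surface, was lowest in the pair at 992 and 875 CPM, against 1143 to 2122. A further 16 chain enzymes outside the named families gave 0 calls, with 9 estimates above 0 and 7 below. Gal3st2c (-0.48 ± 0.34) and B4galt1 (-0.27 ± 0.21) had the smallest p. Within that list A4gnt, which caps chains in gastric-type mucins, was at 66.9 and 68.8 CPM in the pair and 15.3 to 28.4 elsewhere. Of 7 tested mucin backbones 0 were called, and 2 had estimates above 0 and 5 below (median -0.10). Muc16 (-1.59 ± 0.86, at 7.30 CPM in WT replicate 1 and 0.323 to 1.9 in the other libraries) and Muc1 (-0.50 ± 0.28) had the smallest p of them.

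Leaving out WT replicate 1 and Degs2_KO replicate 3 together left 3 libraries a group and still 0 enzymes called. At an unadjusted p under 0.05 there were then 2, Galnt3 (0.31 ± 0.11) and Gcnt1, beside 4.01% of all genes. The groups did not overlap for 5 enzymes, Galnt1, Galnt3, Galnt17, Gcnt1 and B3gnt8, beside 9.41% of all genes. Galnt1 and Galnt3 were higher in Degs2_KO and the other 3 lower. For the enzymes most tied to the pair, the estimates without it were 0.04 ± 0.21 for Gcnt3, -0.12 ± 0.34 for Gcnt4, -0.23 ± 0.22 for B3gnt7, -0.06 ± 0.21 for B3gnt5 and -0.61 ± 0.34 for Galnt17. Each SE was smaller than with all 8 libraries, which follows from leaving out the libraries that were the extremes of these enzymes. None of the estimates was called. Leaving out WT replicate 1 alone gave 5 enzymes whose groups did not overlap (beside 6.45% of all genes) and 3 at an unadjusted p under 0.05 (beside 4.78%). Leaving out Degs2_KO replicate 3 alone gave 0 of each, beside 3.31% and 1.78%. Galnt3 itself moved past 0.05, to an unadjusted edgeR p between 0.0514 and 0.0577, without any 1 of WT replicates 3 and 4 and Degs2_KO replicates 3 and 4. The groups did not overlap for 2 enzymes without WT replicate 3 (2.29% of all genes), 1 without WT replicate 4 (2.2%) and 3 without Degs2_KO replicate 1 (3.64%). With 50 enzymes, each of these counts is within a few genes of the share over all genes, and nothing is read from them.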

How the data were processed

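RNA was sequenced from distal colon epithelial cells of 4 WT and 4 Degs2_KO samples. The submitters' processing notes name Cuffdiff, Cufflinks 2.1.1, TopHat2 2.0.10, cutadapt 1.9 and mm10 as the build; annotation and strand use were not given in the sources used here. Estimated counts per gene were deposited, and the steps between low values show that each library was scaled by 1 factor (1 fragment is worth 0.871 to 1.31). There, 47 genes with a failed estimate, listed at 0, were left out (Muc4 and Fcgbp among them, and 0 of the enzymes), and 22 of the 66 enzymes share exon sequence with another gene, 4 symbols on the same strand.

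Estimated counts were rounded and tested with edgeR 4.0.16 in R 4.3.3: TMM, filterByExpr (minimum count 10, total 15), quasi-likelihood test, 2-sided, Benjamini-Hochberg over all 16132 genes tested, threshold 0.05. CPM is TMM-normalised; log2 CPM uses a prior count of 2; levels between genes are per kb of merged exons of GENCODE's mm10 annotation. SEs and 95% intervals come from the fit. Alternatives were DESeq2 1.42.0, other scalings, filters, blocks and left-out libraries. The script was tested on simulated data. Libraries of a group differed beyond sampling noise. Floors of 3 fragments cover counting error only. Members, lists and the pair of libraries were chosen with earlier results of these data known. Described in full are the 5 enzymes per direction with the smallest p, the 3 highest per length in each of 10 roles, the 6 with the largest SD over libraries, and the 2 smallest p of each list of glycosylation genes, plus Muc2 (cell type lists are given by their sums); for the library order, other genes were chosen after their values were seen.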

Additional observations from a re-analysis of the deposited data

Results flagged for a closer look

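In each of 100 groups of 4 libraries (50 enzymes, 2 genotypes), a library was singled out when its gap to the nearest other library was beyond Dixon's 95% critical value for 4 samples; chance alone does this in about 1 in 20 groups, and 8 were found. Degs2_KO replicate 3 gave 6 of them. There Gcnt3 was at 528 CPM (the other 3 Degs2_KO libraries 156 to 172), B3gnt6 at 52.6 (10.1 to 11.1), Gcnt4 at 13.9 (2.49 to 3.76), Chst11 at 8.99 (0.670 to 1.12) and Fut2 at 357 (245 to 258). Galnt18 was low there at 0.416 CPM (1.03 to 1.08). The other two were Galnt7 in Degs2_KO replicate 4 at 422 CPM (372 to 377) and Gcnt2 in WT replicate 4 at 32.7 CPM (22.9 to 24.0).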

How the results depend on the processing

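Over 16 alternatives no enzyme and no listed gene was called by edgeR or DESeq2; adjusted p of the 26 enzymes followed stayed between 0.879 and 0.99999, and 12 of the 26 kept their direction throughout. DESeq2 called 2 genes of all tested, among them Degs2 (log2 fold change -1.06, adjusted p = 6.96e-07). The count of enzymes at an unadjusted p under 0.05 was 0 with the replicate block, 0 with a block on adjoining ID numbers (3 pairs), 2 without WT replicate 1 and Degs2_KO replicate 3, and 0 to 3 when single libraries were left out; over all genes it was 79 to 782 (0.491% to 4.78%). Enzymes whose groups do not overlap numbered 5 without that pair and 0 to 5 in the single leave-outs, where 2.07% to 6.45% of all genes did the same (9.41% without the pair). The median log2 fold change of the enzymes was -0.020 with no filter, -0.023 without the pair and -0.012 to 0.052 in the leave-outs. Same-numbered WT and Degs2_KO libraries had correlations of -0.42, 0.44, -0.56 and -0.10 in their deviations from the group means. WT replicate 1 and Degs2_KO replicate 3 had 0.75. With 2 libraries that stand apart, such correlations cannot show whether the titles' numbers pair the libraries. Directions changed for Chst11 (-0.0053), B3gnt6 (-0.071) and St3gal1 (0.031) under the replicate block; for Gcnt4 (0.053), St3gal1 (0.41), St3gal6 (-0.023) and St3gal4 (0.033) under the ID block; and for Chst11 (-0.26), B3gnt6 (-0.40), St6galnac6 (-0.025), St3gal4 (0.10) and B3gnt3 (-0.021) without the pair. In the leave-outs 14 changed direction, with ranges of Chst11 -1.36 to 1.49, Gcnt4 -1.25 to 0.78, B3gnt6 -0.95 to 0.60, Gcnt3 -0.42 to 0.67, Fut9 -0.94 to 0.18, B3gnt7 -0.45 to 0.061, B3gnt5 -0.28 to 0.16, St3gal1 -0.54 to 0.18, Galnt12 -0.033 to 0.33, Fut2 -0.013 to 0.21, St3gal6 -0.0077 to 0.27, St3gal4 -0.12 to 0.062, B3gnt3 -0.023 to 0.10 and St6galnac6 -0.064 to 0.072. The 12 that kept their direction had ranges of C1galt1c1 0.059 to 0.31, Galnt11 -0.24 to -0.039, Gcnt1 -0.47 to -0.15, Gcnt2 -0.37 to -0.16, Chst13 0.22 to 0.65, Chst4 0.067 to 0.26, Galnt17 -1.05 to -0.23, B3gnt8 -0.65 to -0.22, Galnt3 0.24 to 0.34, Galnt1 0.058 to 0.13, Galnt7 0.063 to 0.14 and C1galt1 0.051 to 0.21. The cause was not tested. The precision of low genes is limited by depth: 3 fragments are 0.0622 to 0.0948 CPM.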
